A study of Mus musculus with 2 samples.

Results

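Cdh5, Kdr, Flt1 and Pecam1 are 4 genes by which blood vessel endothelium is usually recognised. They were followed here in cells sorted from mouse neural tube preparations at embryonic day 9.5. The deposited table has no gene names, so each gene was found by its position on mm9, as every transcript row whose locus overlaps the window of the gene. This gave 10 transcript rows at 4 loci, of 55418 rows at 24214 loci in all. The loci lie on chromosome 8 from 106625524 to 106668402 (Cdh5), on chromosome 5 from 76329298 to 76374453 (Kdr) and from 148373771 to 148537564 (Flt1), and on chromosome 11 from 106515531 to 106576595 (Pecam1), each spanning the gene with its exons and introns.

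The gene names were checked against RefSeq genes of GRCm38.p6 by span and neighbours, with no coordinates transferred between builds. The span of the locus differed from that of the RefSeq gene by 2.36% for Kdr, 0.632% for Flt1, 0.0303% for Cdh5 and 0.00655% for Pecam1. Of 20 RefSeq neighbours looked for around each gene, 11 had a locus of matching span at a matching distance around Cdh5, 6 around Kdr, 12 around Flt1 and 10 around Pecam1. The settings for neighbours were revised once after the data were seen, as Kdr, Pecam1 and many list genes had too few under the first ones. In the table, 0 other loci overlapped any of the 4.

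The embryos carried the mTmG reporter, a membrane-bound red protein that Cre replaces with a green one, and Grhl3-cre, on a C57BL/6 background in both lines. Green cells therefore mark cells with a history of Grhl3 promoter activity, and red cells are all others, vessels and blood among them where these remained after dissection. Each pool came from 25 embryos at stages between 21 and 25 somites, and gave 1 library: GFP-positive cells, labelled as non-neural ectoderm, and RFP-positive cells, labelled as what was left of the neural tube. The table calls its conditions q1 and q2, which match neither label. Its abundance columns were therefore not used, no difference was assigned to a pool, and no level is given. A positive fold change means a higher value in q2. With 1 library per condition no difference has a replicate check, and the p-values and q-values in the authors' deposited table compare 2 libraries, not cell populations.

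Endothelial cells line blood vessels and, early in development, form the plexus that surrounds the neural tube before vessels grow into it. Vascular endothelial growth factors (VEGFs) act on them through receptor tyrosine kinases. Kdr (VEGFR2) is the main signalling receptor, while Flt1 (VEGFR1) binds VEGF-A more tightly but signals weakly, so that it also acts as a trap for the ligand. Cdh5 encodes VE-cadherin, the cadherin of endothelial adherens junctions. Pecam1 encodes CD31, an adhesion molecule of the immunoglobulin family that is also found on platelets and some leukocytes.

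The promoters of the receptor pair are shown because Kdr and Flt1 bind the same ligand, and no entry was available for Cdh5 or Pecam1. They are the 250 bases before the start in the RefSeq promoter table (build GRCm38.p6), which held an entry for 2 of the 4 genes. Both lie on the minus strand, Kdr at chr5:75978456-75978705 and Flt1 at chr5:147726012-147726261. Capitals mark matches on either strand to TATAAA (the TATA box), TGACGTCA (the cyclic AMP response element) and GGGCGG (the GC box).
Kdr: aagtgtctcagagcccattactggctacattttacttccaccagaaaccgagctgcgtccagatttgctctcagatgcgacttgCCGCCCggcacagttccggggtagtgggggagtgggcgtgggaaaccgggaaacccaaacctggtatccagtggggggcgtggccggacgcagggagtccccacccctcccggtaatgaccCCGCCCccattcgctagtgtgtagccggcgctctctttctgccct
Flt1: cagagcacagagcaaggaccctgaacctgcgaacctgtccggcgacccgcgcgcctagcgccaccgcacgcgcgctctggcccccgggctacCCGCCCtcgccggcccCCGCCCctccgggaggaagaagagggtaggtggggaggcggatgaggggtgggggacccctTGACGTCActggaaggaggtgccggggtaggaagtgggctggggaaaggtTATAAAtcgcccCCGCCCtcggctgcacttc

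The Flt1 sequence holds TATAAA with its first base 31 bases before the start and TGACGTCA at 81 bases. The Kdr sequence holds neither in this window. Of 32851 promoter sequences of the same length, 12.4% hold TATAAA and 1.55% hold TGACGTCA on either strand. GGGCGG, found in 32.7% of them, occurs 2 times in Kdr and 3 times in Flt1, each time as the reverse complement of those letters. The core of the motif bound by ETS factors, GGAA, occurs 4 times in each, but 93.4% of all sequences hold it, with a median of 3 matches. GC content was 61.6% for Kdr and 70.4% for Flt1. These matches describe the letters only, and the fold changes of Kdr and Flt1 could not be told apart.

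A fold change of at least 2-fold was found for 0 of the 4 genes, against 8.57% of the measured loci. At that share the count is not a result about the genes. Only for Kdr did the 95% interval exclude a 2-fold difference in either direction. Fold changes of Cdh5, Flt1 and Pecam1 were positive and that of Kdr was slightly negative, and every 95% interval included 0. The table held 6 tested transcripts of these genes and 4 marked as not tested. Of the 6, 0 were called different by the authors, against 0.803% of the 29405 tested transcripts in the whole table. Of the same 6, 0 were below p = 0.05 in the authors' deposited table, against 3.1% of all tested transcripts, and each of the 6 q-values was 1.00. At such background shares, 0 of 6 is not a result about the genes, so the sizes and errors of the fold changes are given in full.

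Each fold change is given on the log2 scale with an error, which is the absolute value divided by the absolute test statistic. The 95% interval follows from that error under a normal approximation. It covers what the authors' model allowed for within these libraries and no spread between embryos or sorts. In bulk RNA of this kind, fewer cells of a type and less RNA per cell cannot be told apart.

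Kdr was the gene measured most tightly. Its tested transcript, uc008xul.1, stood at -0.08 ± 0.34 in the authors' deposited table (log2 fold change ± error), with p = 0.803. The interval ran from -0.74 to 0.58, that is from 0.597 to 1.49 times the value in q1. A 2-fold difference in either direction therefore lay outside the interval for Kdr, the only one of the 6 transcripts for which this was so. The other 2 Kdr transcripts, uc008xum.1 and uc012dxk.1, were not tested, and their fold changes in the authors' deposited table, -0.11 and -0.08, had errors of 19.2 and 23.1 and carry no information.

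Flt1 was listed as a pair of tested transcripts, both positive. Overlapping transcripts of a locus share reads, so their common sign is not independent. In the authors' deposited table, uc009aoh.1 had 0.42 ± 0.60 (p = 0.476) and uc009aoi.1 had 0.82 ± 0.85 (p = 0.336), as log2 fold change and error. Neither exceeded its own error. Their intervals, from -0.74 to 1.59 and from -0.85 to 2.50, include no difference and a 2-fold positive difference, but not a 2-fold negative one. Flt1 makes a membrane-bound receptor and a soluble decoy form, and which row is which is not stated in the table.

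Cdh5 had 1 transcript, uc009mzx.2. It stood at 0.53 ± 0.40 in the authors' deposited table (p = 0.193, the lowest p of the 6). It was also the only one of the 6 to exceed its error. The interval, from -0.27 to 1.32 or from 0.831-fold to 2.49-fold, includes no difference and reaches past 2-fold on the positive side only.

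Pecam1 was the least certain of the genes. Its tested transcripts uc007lzf.1 and uc007lzg.1 both had a log2 fold change of 0.75 in the authors' deposited table, with errors of 1.29 and 1.18 and p of 0.561 and 0.524. The intervals, from -1.78 to 3.29 and from -1.56 to 3.07, are wide enough to hold a 2-fold difference in either direction. Overlapping transcripts of a locus share reads, so the like values of this pair are not independent. The remaining transcripts, uc007lze.1 and uc007lzh.1, were not tested and are marked as negative ratios against 0 in the authors' deposited table, that is, listed at 0 in q2.

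**Figure D1:**
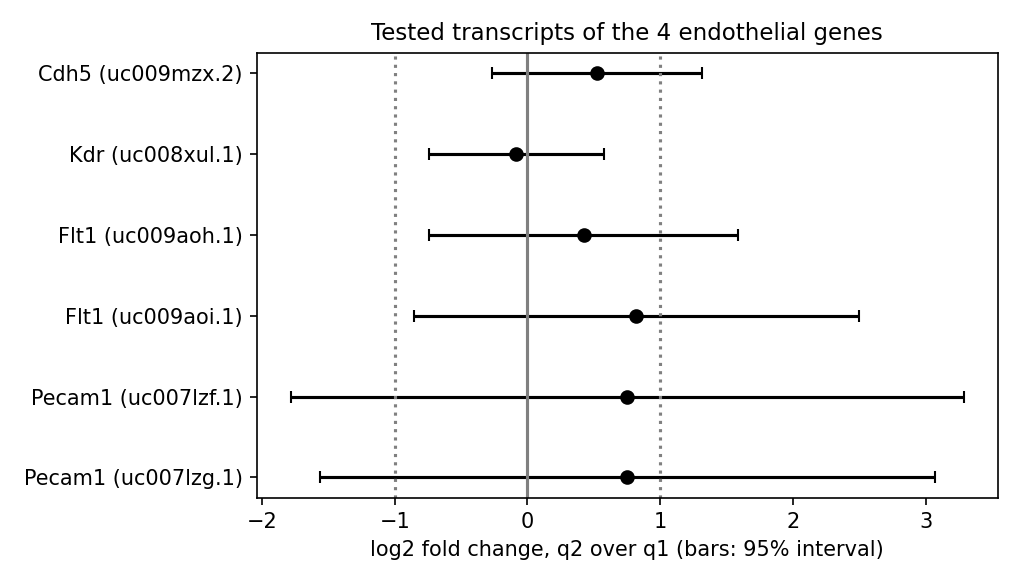
Log2 fold change (q2 over q1) of the 6 tested transcripts of Cdh5, Kdr, Flt1 and Pecam1 in the authors' deposited table, with bars for the 95% interval of the table's error and dotted lines at 2-fold. Every interval includes 0, and only that of Kdr, from -0.74 to 0.58, lies wholly between the dotted lines.

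The 4 genes could not be told apart from each other. The largest gap among the precisely measured ones was that between the junction gene and the main receptor, Cdh5 minus Kdr, at 0.61 ± 0.53 on the log2 scale, with an interval from -0.42 to 1.64. Kdr minus Flt1 was -0.51 ± 0.68, with an interval from -1.85 to 0.83. Cdh5 and Flt1 differed by 0.10 ± 0.72. The pairs with Pecam1 had errors between 1.23 and 1.32. All 6 pairs had intervals that include 0, where the errors of the genes were combined as independent. That does not show that the genes act alike, since each interval also holds a 2-fold difference in at least 1 direction.

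To set the genes beside the rest of the table, each locus was represented by its tested transcript with the smallest error, called the best-measured transcript below. There were 13344 such loci. The quartiles lay at -0.21 and 0.17 on the log2 scale, around a median of -0.02, and 47.5% were positive. For the 4 genes the median was 0.47, and 3 of 4 were positive. At least 2-fold differences were found for 0 of the 4 genes and for 8.57% of the loci, 5.02% positive and 3.54% negative. Pecam1 lay above 93.1% of the loci, Cdh5 above 90.1%, Flt1 above 87.9% and Kdr above 40.0%.

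Poorly measured loci scatter more, so each gene was also set beside loci with an error between 0.5 and 2 times its own. This band was wide, and for Cdh5, Kdr and Flt1 it held most of the 13344 loci. Most loci in the band of Pecam1 had smaller errors than Pecam1, so scatter was matched only in part. Cdh5 lay above 92.4% of 11656 such loci, Flt1 above 88.6% of 12592 and Pecam1 above 86.5% of 4195. Kdr lay above 38.6% of 10341, within their quartiles of -0.18 and 0.15. Cdh5, Flt1 and Pecam1 each lay above the upper quartile, which was 0.15, 0.17 and 0.32. The errors themselves placed Kdr among the better measured loci, with a larger error at 86.0% of all loci, and Cdh5 at 68.4%, against 31.7% for Flt1 and 2.84% for Pecam1. These positions describe a single pair of libraries and carry no test.

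**Figure D2:**
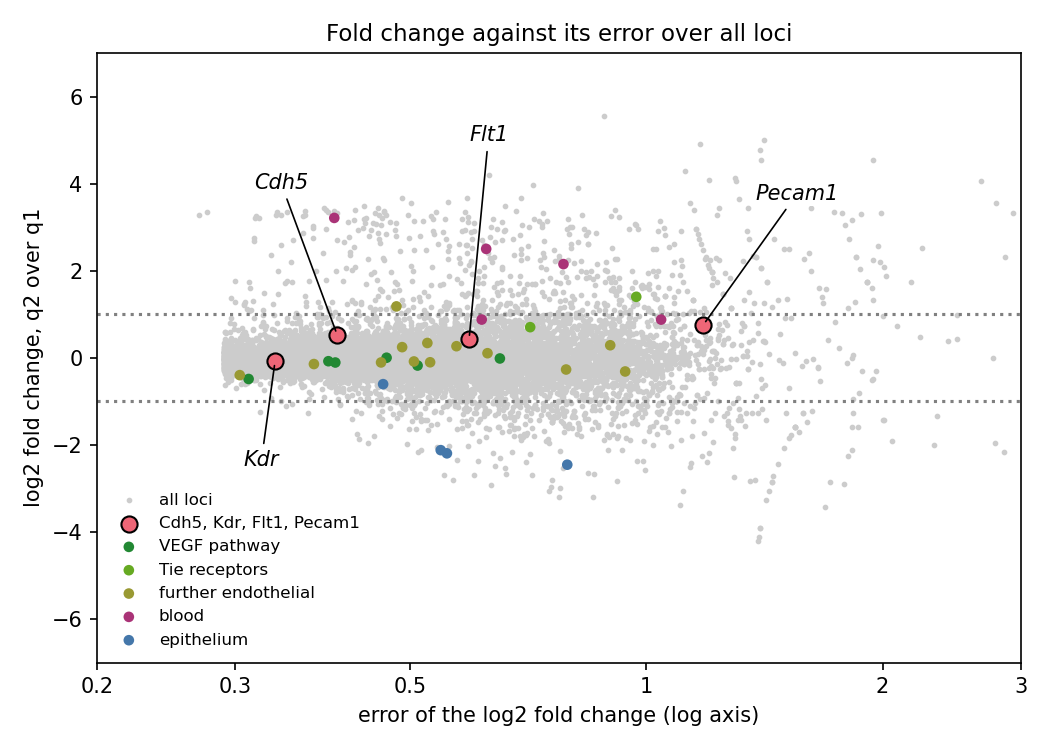
Log2 fold change (q2 over q1) of the best-measured transcript of 13344 loci against its error (log axis). Cdh5, Kdr, Flt1 and Pecam1 and the measured genes of the other endothelial, blood and epithelial lists are in colour. Dotted lines mark 2-fold, and 102 loci lie outside the axes. The 4 genes lie between the dotted lines at errors from 0.34 for Kdr to 1.18 for Pecam1, while Tek, S1pr1, 3 blood and 3 epithelial genes lie beyond them.

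All 6 listed ligands and remaining receptors of the VEGF pathway were identified. By their best-measured transcripts 0 of 6 differed 2-fold, and their log2 fold changes ranged from -0.49 to 0.00 with a median of -0.09. Vegfa, the principal ligand of Kdr and Flt1, was at -0.02 ± 0.65 in the authors' deposited table. Its 7 tested transcripts ranged from -0.48 to 1.37. Pgf and Vegfb, which bind Flt1 and not Kdr, were at 0.00 ± 0.47 and -0.18 ± 0.51. Vegfc and its receptor Flt4 (VEGFR3) were at -0.08 ± 0.39 and -0.11 ± 0.40 in the authors' deposited table, both with intervals inside 2-fold. Vegfc had 2 tested transcripts, and the other was listed as a ratio against 0. The co-receptor Nrp1, which neurons also make, had the lowest value, -0.49 ± 0.31, with an interval from -1.10 to 0.12. Its 4 tested transcripts ranged from -2.23 to 0.85 in the authors' deposited table. Of the 17 tested transcripts of these genes 0 were called, against 0.803% of all tested transcripts, so the count is not a result about them.

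The Tie receptors, the other receptor tyrosine kinase system of endothelium, were on the positive side. Tie1 was at 0.70 ± 0.71 in the authors' deposited table, close in size to Pecam1. Its 2 tested transcripts were both positive, but they lie at 1 locus and are not independent. Tek (TIE2), the receptor for angiopoietins, was at 1.40 ± 0.97 for its best-measured transcript, but its other tested transcript was at -0.72. Neither receptor had a called transcript, and both intervals include 0. Angpt1 and Angpt2, the ligands of Tek, were not identified in the table.

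Among 23 further genes listed as endothelial, 13 were identified, 6 of them positive and 7 negative, with a median log2 fold change of -0.08. The highest was S1pr1, a sphingosine-1-phosphate receptor of vessels that other embryonic cells also make, at 1.18 ± 0.48 or 2.27-fold. Its interval, from 0.24 to 2.12, was the only one of these 13 without 0, but its q-value in the authors' deposited table was 0.756 and it was not called. It was followed by Mmrn2, an endothelial matrix protein, at 0.34 ± 0.53, and Emcn, an endothelial sialomucin, at 0.29 ± 0.90. The lowest were Ets1 at -0.40 ± 0.30, Robo4, an endothelial guidance receptor, at -0.31 ± 0.94 for its best-measured transcript, and Erg at -0.27 ± 0.79 in the authors' deposited table. The other tested transcript of Robo4 was listed at 12.29 there and was not called. Of the 4 tested transcripts of Erg, 2 were ratios against 0, and the finite values ranged from -0.71 to -0.27. Ets1 and Erg are ETS-family transcription factors, and both are also made outside endothelium.

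Over these lists together, 21 of 33 genes were identified. Their median log2 fold change was -0.08, and 9 of 21, or 42.9%, were positive, against 47.5% of all loci. At least 2-fold positive differences were found for 2 of 21, Tek and S1pr1, and negative ones for 0 of 21, against 5.02% and 3.54% of loci. Of the 44 tested transcripts 0 were called in the authors' deposited table, again beside a background of 0.803%.

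**Figure D3:**
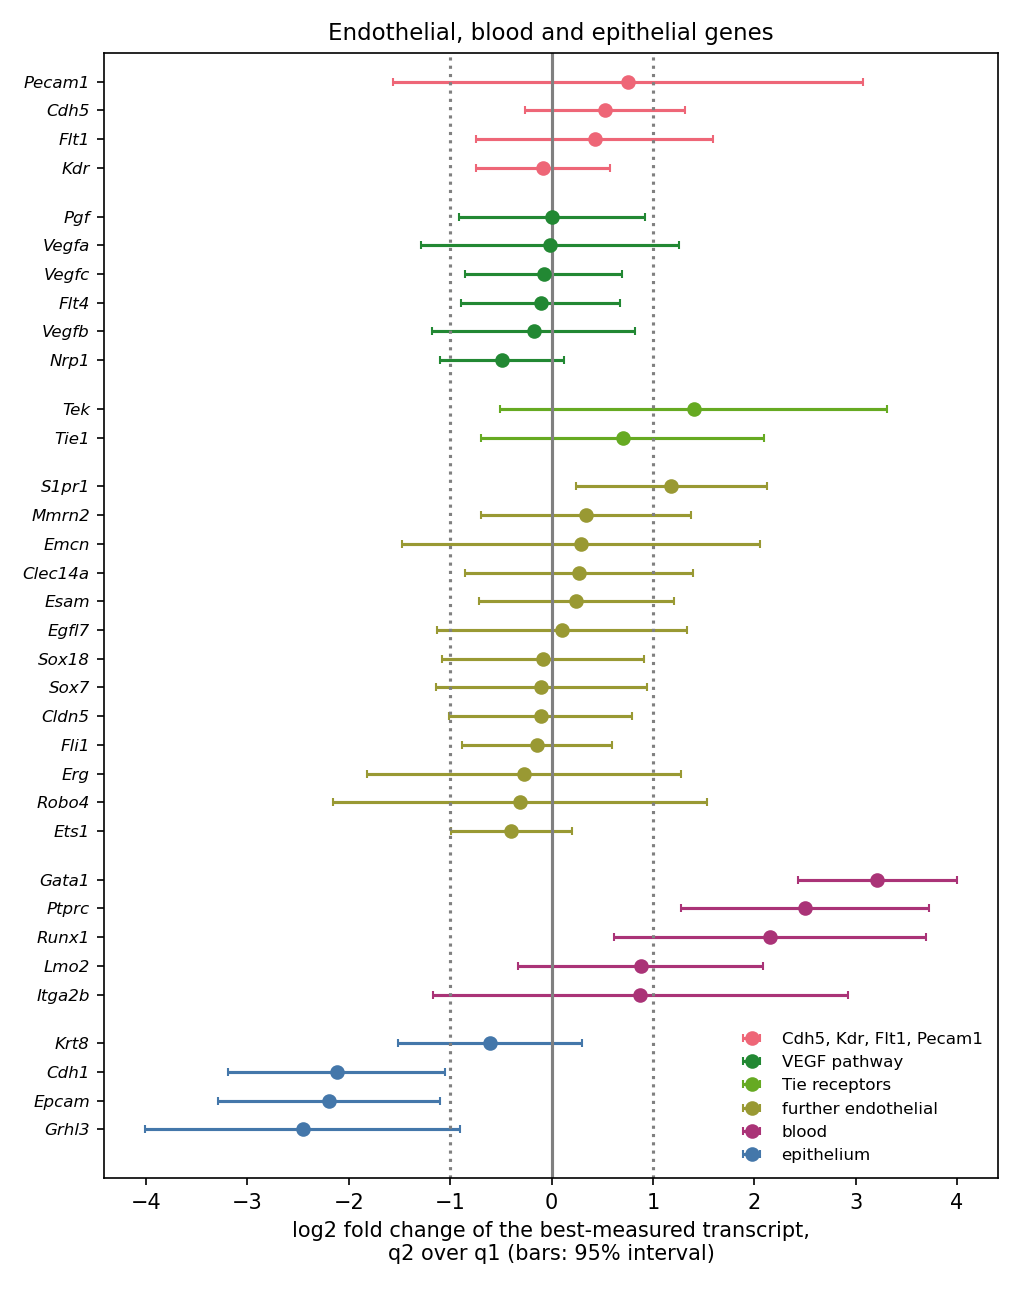
Log2 fold change (q2 over q1) of the best-measured transcript of each measured endothelial, blood and epithelial gene, grouped by list. Bars give the 95% interval and dotted lines mark 2-fold. Among the endothelial genes the interval of S1pr1 alone excludes 0. Tek, S1pr1, Gata1, Ptprc and Runx1 lie to the right of the dotted lines and Cdh1, Epcam and Grhl3 to the left.

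The only called genes on these lists were markers of blood and epithelium, 2 of each. Of tested transcripts, 2 of 13 were called for blood and 2 of 4 for epithelium, against 0.803% of all tested transcripts. The lists were chosen with earlier results of these data known, and the pools were sorted by a Grhl3-cre reporter. These shares, and those given below for blood and epithelial genes, are therefore descriptive and no independent support. Blood genes were listed because Pecam1 is shared with platelets and leukocytes. Of 8, 6 were identified and 5 had a tested transcript. All 5 were positive, 3 of 5 at least 2-fold, against 5.02% of loci at least 2-fold positive. Their median log2 fold change was 2.15, with a range from 0.88 to 3.21. Gata1, a transcription factor of red cells and megakaryocytes, was at 3.21 ± 0.40 with q = 1.6e-12 in the authors' deposited table. Its other tested transcript was at 1.36 there and was not called. Ptprc, the leukocyte antigen CD45, was at 2.50 ± 0.63 with q = 0.01 there. Runx1, a factor of blood stem cell formation, was at 2.15 ± 0.78 and was not called, and its other tested transcript was at 1.04. Itga2b, the platelet integrin CD41, and Lmo2, a factor shared by blood and endothelium, were both at 0.88, with errors of 1.04 and 0.62. Each had 4 tested transcripts, from 0.88 to 2.37 for Itga2b and from 0.22 to 1.27 for Lmo2. The 5 blood markers had the sign of Cdh5, Flt1 and Pecam1. The intervals of Itga2b, Lmo2, Cdh5, Flt1 and Pecam1 include 0, so the signs of these are uncertain. Any part of the blood markers in the values of Cdh5, Flt1 and Pecam1 was not tested.

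All 4 epithelial genes were identified and negative, 3 of 4 at least 2-fold, against 3.54% of loci at least 2-fold negative. Their median log2 fold change was -2.16. In the authors' deposited table Cdh1, the epithelial cadherin, was at -2.12 ± 0.55 (q = 0.0157), and Epcam, an epithelial adhesion molecule, was at -2.19 ± 0.56 (q = 0.0126). Both were called. Grhl3, whose promoter drove the Cre, was at -2.46 ± 0.79 with q = 0.171 in the authors' deposited table, and Krt8, a keratin of simple epithelia, was at -0.61 ± 0.46. The interval of the epithelial cadherin Cdh1 ran from -3.19 to -1.05. That of the endothelial cadherin Cdh5 ran from -0.27 to 1.32 and includes 0. The difference between the 2 cadherins was not tested, and these errors hold no spread between sorts. Pdgfra, a receptor of mesenchyme, was at 0.09 ± 0.35 for its best-measured transcript, while its 5 tested transcripts ranged from -3.10 to 0.16 in the authors' deposited table. The listed neural markers, Sox2 and Pax6, were not identified, so neural identity was not checked.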

How the data were processed

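RNA of GFP-positive and RFP-positive cells was sequenced, 1 library each. Per the submitters' processing notes, the authors used TopHat 1.3.2, Cufflinks 2.0.2 and Cuffdiff on mm9. The sources used here give neither the annotation nor the version and settings of Cuffdiff. The authors deposited a log2 fold change and a test statistic (a score) per transcript, with p-values and q-values. The statistic has the opposite sign to the fold change. The 2 abundance columns, whose conditions match no sample label, were not used, so the planned sums, pseudocounts, abundance filters and scalings were not run, and the table's own fold changes took their place. Depth is unknown.

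The genes and lists were chosen with earlier results of these data known. Per locus, the tested transcript with the smallest error stood for the gene. List genes were identified from an approximate mm9 position recalled for each, by a locus within 200 kb, a span within 5% of the RefSeq gene and at least 5 of 20 RefSeq neighbours at matching span (within 2%) and distance (within 20 kb). The transcript rule and the neighbour condition, whose settings were revised once, were chosen after the data were seen: by position and span alone, 3 of 17 endothelial genes fell at loci that the neighbours did not support. All VEGF and Tie genes, the 3 highest and 3 lowest further endothelial genes and, because no abundance was used to choose 2 per list, all measured genes of the other lists were named. The code for the choice of transcript and the errors was run on simulated data. That checks the code only, not whether the errors or the choice suit these data. Python 3.11.15, pandas 2.3.3, numpy 2.4.6, scipy 1.17.1 and matplotlib 3.10.9 were used.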

Additional observations from a re-analysis of the deposited data

How the results depend on the processing

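No paired analysis was possible because there was 1 library per condition, and no replicate could be left out. Alternatives that need abundances were not run. Over the 5 alternatives run for each gene (centring on the median of all loci, which moves values by 0.02, and 4 other choices of transcript, chosen after seeing the data), Cdh5, Flt1 and Pecam1 were positive and Kdr negative each time. With 1 tested transcript each, Cdh5 and Kdr could not move under the choice of transcript. All tested transcripts of Flt1 and Pecam1 were positive, and centring moved values too little to change a sign. The same signs throughout were therefore fixed in advance and are no support. The ranges were 0.53 to 0.54 for Cdh5, 0.42 to 0.82 for Flt1, 0.75 to 0.77 for Pecam1 and -0.08 to -0.07 for Kdr. The counts of 0 genes at 2-fold and 0 called transcripts were also 0 at 4-fold, over any tested transcript, at q-values of 0.01 and 0.1 and after adjustment over all rows. The 4-fold limit could not raise a count of 0 at 2-fold. The q-value limits and the adjustment could not call a transcript, as the lowest p of the 6 was 0.193 in the authors' deposited table. The count of other endothelial genes at 2-fold, 2, was also 2 with a span limit of 1% and with centring, and 3 with identification by position and span alone, the rule as first planned. Of all loci, 8.57% were at 2-fold, 6.19% with errors of at most 1 and 12.4% with untested transcripts included. The errors, from 0.34 for Kdr to 1.29 for Pecam1, limit what can be seen.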
